A study of Mus musculus with 12 samples.

Results

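The genes described here are 8 regulators of oocyte and follicle development: the transcription factors *Figla*, *Nobox*, *Lhx8*, *Sohlh1* and *Sohlh2*, the general transcription factor subunit *Taf4b*, and the growth factors *Gdf9* and *Bmp15*. They were chosen by name for their roles, and a probe named for 7 of the 8 was found on the array, whereas *Sohlh1* was not analysed here. Of these 7 genes, 6 passed the filter on dim probes and entered the tests, out of 18844 genes tested and 29182 on the array, and *Bmp15* did not pass. Expression in E14.5 mouse gonads was read from 12 Agilent arrays of 1 colour, 3 in each of 4 groups, with 1 pair of gonads of a mixed-background embryo on each array and tamoxifen given at E9.5 and E10.5. Of the control ovaries, replicate 1 carried Smad4Flox/+ StellaMerCreMer Stra8+/-, replicate 2 carried Smad4Flox/+ Stra8+/- and replicate 3 carried Smad4Flox/Flox Stra8+/-, so that 2 of the 3 lacked the Cre. The 3 control testes carried Smad4Flox/+ StellaMerCreMer Stra8+/-. *Smad4 (Stella)* ovaries were homozygous for the floxed *Smad4* allele, carried the MerCreMer transgene and were Stra8+/-, and double knockout (DKO) ovaries carried the same *Smad4* alleles and transgene and were Stra8-/-. One copy of *Stra8* was therefore missing in the controls as well, and no array held a *Stra8* mutant with intact *Smad4*. The *Stella* element drives the Cre in germ cells only, and the somatic cells of the gonad were not targeted. Cre activity of this line is variable and the deletion incomplete, so that a share of germ cells retained *Smad4*.

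FIGLA, SOHLH1 and SOHLH2 are basic helix-loop-helix proteins, which bind E-box motifs (CANNTG) as dimers, and NOBOX and LHX8 are homeodomain proteins. Together they are known for switching on genes of the growing oocyte and for the formation of primordial follicles, which in the mouse happens around birth, well after the stage measured. TAF4B is a subunit of TFIID that is enriched in gonads, and GDF9 and BMP15 are secreted TGF-beta family ligands of the oocyte that signal to granulosa cells through receptors and SMAD proteins.

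*Figla*, *Sohlh2* and *Lhx8* were the transcription factors whose level differed between the control ovaries and testes, and the sequence upstream of their starts is shown for that reason. The 250 bases before the start were taken from RefSeq on GRCm38.p6 and are written from 5′ to 3′ on the strand of the gene, with every CANNTG in capitals.
*Figla*, chr6:86016941-86017190, plus strand: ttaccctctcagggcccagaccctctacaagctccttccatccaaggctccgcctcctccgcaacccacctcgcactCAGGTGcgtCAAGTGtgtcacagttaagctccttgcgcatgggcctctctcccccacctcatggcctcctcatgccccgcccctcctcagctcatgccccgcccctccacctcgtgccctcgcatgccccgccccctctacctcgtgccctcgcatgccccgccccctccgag
*Sohlh2*, chr3:55181794-55182043, plus strand: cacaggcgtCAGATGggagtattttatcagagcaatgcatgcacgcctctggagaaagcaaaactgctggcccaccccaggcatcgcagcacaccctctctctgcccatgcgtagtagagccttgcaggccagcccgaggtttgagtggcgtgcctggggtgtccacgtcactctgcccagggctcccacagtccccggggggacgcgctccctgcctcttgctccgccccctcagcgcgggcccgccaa
*Lhx8*, chr3:154330561-154330810, minus strand: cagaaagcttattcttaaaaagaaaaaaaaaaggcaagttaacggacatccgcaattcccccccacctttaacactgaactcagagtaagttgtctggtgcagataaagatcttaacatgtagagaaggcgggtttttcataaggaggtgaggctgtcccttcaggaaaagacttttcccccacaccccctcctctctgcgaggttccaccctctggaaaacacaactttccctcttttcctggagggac

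The window of *Figla* held 2 CANNTG matches, 3 bases apart, the nearer of which ended 158 bases before the start. The window of *Sohlh2* held 1 match, 235 bases before the start, and that of *Lhx8* held none. Of all 32851 promoter windows of the same length, 66.2% held a CANNTG on either strand, so that its presence or absence does not set these genes apart. The motif reads the same on both strands whatever its middle bases are, and CACGTG, a form of it, was counted within it. CACGTG was absent from these 3 windows and from those of *Nobox* and *Bmp15*, was found 3 times before *Sohlh1*, and occurred in 6.02% of all windows. The homeobox motifs TAATTG or TAATTA (11.3% of all windows) and TGATTG (12.7%) were searched on both strands and each occurred once before *Bmp15* and not before the other 5 genes. No promoter of *Gdf9* or *Taf4b* was used here.

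The levels of *Figla* and *Lhx8* rest on the following probes, of which the first 30 of 60 bases are shown. All are written as on the array and placed on mm9 by the scanner files.
*Figla*, chr6:85970895-85970954: aaatagtcatgtataagttgaaaagttcaa
*Lhx8* probe A, chr3:153969377-153969436: gtgaatttgcaactgaaatttattttgcca
*Lhx8* probe B, chr3:153969855-153969914: ccaataagtcatacctaattccttctttca

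*Sohlh2* was read by a probe at chr3:55013524-55013583, *Nobox* at chr6:43253726-43253785, *Gdf9* at chr11:53251307-53251366 and *Bmp15* at chrX:5891550-5891609. *Taf4b* on chromosome 18 had 2 probes, as *Lhx8* did, and their mean was taken as the level of the gene.

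Levels are given as relative log2 levels, the log2 of the processed intensity minus the 75th percentile of the same array, so that 0 is that percentile. They compare arrays for 1 gene and do not rank genes against each other, since probes differ in brightness. A gene was called when limma gave a Benjamini-Hochberg adjusted p under 0.05 over all 18844 genes and the change was at least 1.5-fold. The share of spots well above background was 58.8% to 70.5%, and 0 spots were saturated. Arrays of 1 group correlated at 0.975 to 0.994. Skeletal muscle transcripts set control ovary 3 apart, with a mean level of 1.24 over 4 muscle genes against -4.07 to -2.55 on the other 11 arrays. Without control ovary 3 the same members were called as with it in each comparison with control ovaries, 0 in *Smad4 (Stella)* ovaries, *Figla* and *Taf4b* in DKO ovaries and *Figla*, *Lhx8*, *Sohlh2* and *Taf4b* in testes, and changed values are given below. The arrays lay on 3 slides: the testes shared slide 1 with control ovary 1, control ovaries 2 and 3 shared slide 2 with DKO ovaries 1 and 2, and the *Smad4 (Stella)* ovaries shared slide 3 with DKO ovary 3. *Stra8* was lower in DKO than in control ovaries by 1.02 on the log2 scale (adjusted p = 0.00271), with levels of 5.28 to 5.61 against 6.16 to 6.71, and was still above the testes by 8.05 (adjusted p = 2.45e-09). *Smad4* differed from the control ovaries by -0.03 (95% interval -0.34 to 0.27) in *Smad4 (Stella)* and by -0.13 (-0.43 to 0.18) in DKO ovaries. Where the *Stra8* and *Smad4* probes lie relative to the deleted parts is not given in the sources used here.

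The control ovaries and testes show what these regulators look like in the female and male gonad at this stage. In control testes 4 of the 6 genes were called lower than in control ovaries and 0 were called higher, where 16.8% of all genes tested were called lower and 17.2% higher. The median difference of the 6 genes was -2.26 on the log2 scale, against 0.02 over all genes. *Figla* fell by 5.96 (SE 0.33, adjusted p = 4.06e-07), a 62.2-fold difference, *Lhx8* by 3.44 (SE 0.42, adjusted p = 7.88e-05), *Sohlh2* by 2.89 (SE 0.24, adjusted p = 5.09e-06) and *Taf4b* by 1.62 (SE 0.13, adjusted p = 3.50e-06). *Lhx8* probe B did not rise well above background in the 3 testes, and the mean of the control ovaries by this probe was at least 2.07-fold higher than the lowest signal that counts as measured there. *Lhx8* probe A was well above background in 1 of the 3 testes. *Nobox* differed by -0.77 (SE 0.32, adjusted p = 0.0710) and *Gdf9* by -0.17 (SE 0.15, adjusted p = 0.394), and neither was called.

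**Figure D1:**
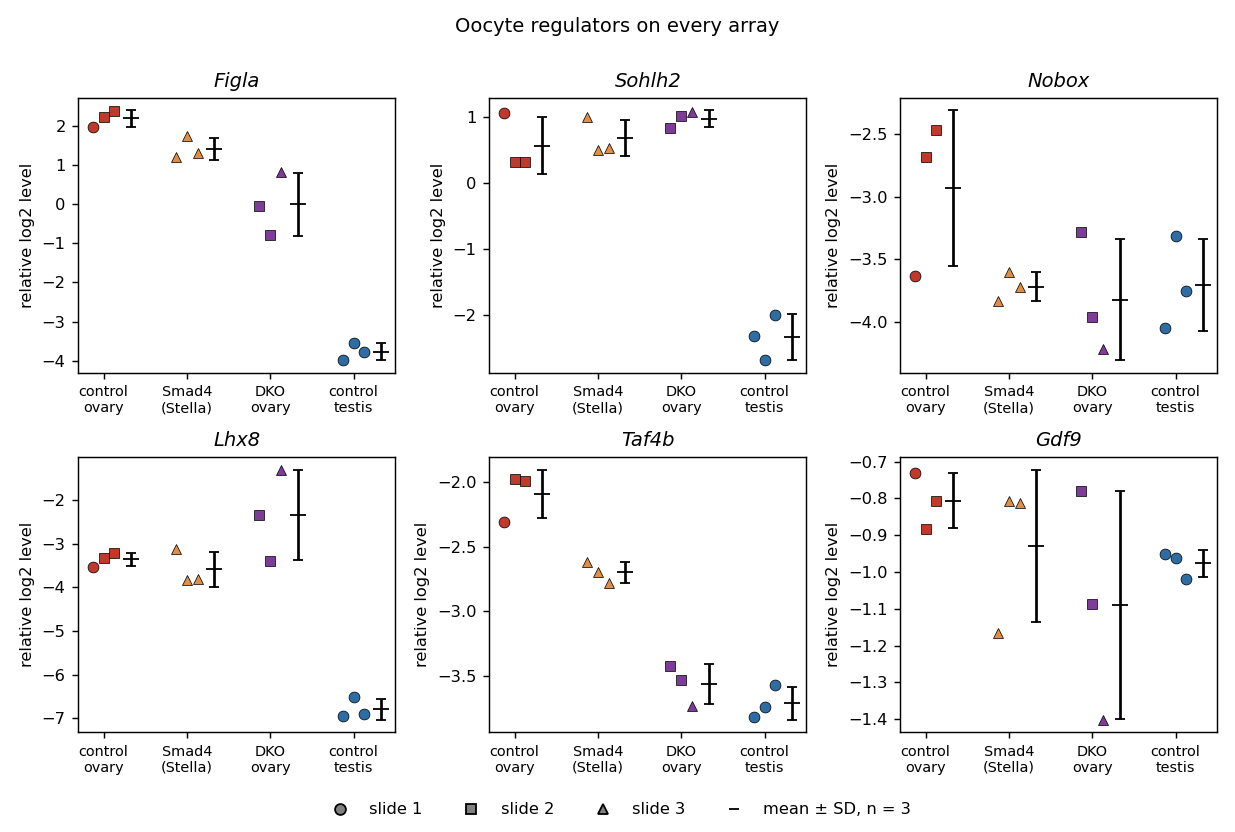
Relative log2 level (vertical axis, 0 is the 75th percentile of the array) of 6 oocyte regulators on each of the 12 arrays, with the mean ± SD (n = 3) beside each group and a marker shape for each slide; each panel has its own axis. *Figla* and *Taf4b* step down from control to *Smad4 (Stella)* to DKO ovaries without overlap, whereas *Sohlh2* and *Lhx8* of both mutants stay above all testes.

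*Figla*, without which primordial follicles do not form, was the member with the largest change in DKO against control ovaries. Its levels were 1.96, 2.24 and 2.38 for the control ovaries, 1.21, 1.73 and 1.30 for the *Smad4 (Stella)* ovaries, -0.04, -0.78 and 0.83 for the DKO ovaries and -3.98, -3.55 and -3.78 for the testes. The 4 groups did not overlap, and each DKO ovary lay below every *Smad4 (Stella)* ovary and above every testis. In DKO ovaries *Figla* was 4.56-fold lower than in control ovaries (log2 difference -2.19, SE 0.33, adjusted p = 0.00102). It was also 2.65-fold lower than in *Smad4 (Stella)* ovaries (-1.41, SE 0.33, adjusted p = 0.0211), and 13.6-fold higher than in testes (3.77, adjusted p = 1.50e-05). The *Smad4 (Stella)* ovaries differed from control ovaries by -0.78 (SE 0.33), which was not called (adjusted p = 0.234). In whole gonads, fewer cells of a type and less RNA per cell cannot be told apart. *Ddx4*, a gene of germ cells of both sexes, was at 4.88 to 5.33 in control and 5.04 to 5.48 in DKO ovaries, a difference of 0.14 (95% interval -0.20 to 0.49). Relative to *Ddx4*, *Figla* differed from control ovaries by -2.33 (adjusted p = 0.000986) in DKO and by -0.53 (adjusted p = 0.426) in *Smad4 (Stella)* ovaries.

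The fall of *Figla* in DKO against control ovaries was -2.72 within slide 2 and -2.10 without control ovary 3, and it was not called by the methods' own per-gene test, which shares no variance between genes (adjusted p = 0.0843). Against *Smad4 (Stella)* ovaries it was smaller with the slide as a block, -0.58 (adjusted p = 0.346), a value that rests on DKO ovary 3, the highest of the DKO ovaries. That call was also lost with the normexp correction (-1.29, adjusted p = 0.168), with that per-gene test (adjusted p = 0.218) and in a fit of only the compared groups (adjusted p = 0.0950), as well as without *Smad4 (Stella)* ovary 2 (adjusted p = 0.0951), without *Smad4 (Stella)* ovary 3 (adjusted p = 0.0609) and without DKO ovary 1 (adjusted p = 0.0624). The *Smad4 (Stella)* ovaries share no slide with the control ovaries, and with the slide as a block, through the DKO arrays, their difference became -2.13 (adjusted p = 0.0944).

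*Taf4b*, a TFIID subunit needed for a normal oocyte reserve, showed the same order of groups in a narrower range. Its levels were -2.31, -1.98 and -1.99 for the control ovaries, -2.62, -2.70 and -2.78 for the *Smad4 (Stella)* ovaries, -3.43, -3.53 and -3.74 for the DKO ovaries and -3.82, -3.74 and -3.57 for the testes. The 3 groups of ovaries did not overlap, while DKO ovaries and testes did. *Taf4b* was lower in DKO than in control ovaries by 1.47 on the log2 scale, 2.78-fold (SE 0.13, adjusted p = 3.60e-05), and lower than in *Smad4 (Stella)* ovaries by 0.87 (SE 0.13, adjusted p = 0.00196). It differed from the testes by 0.15 (95% interval -0.13 to 0.43, adjusted p = 0.391), a sign that turned relative to *Ddx4* (-0.56, adjusted p = 0.0291), a change under 1.5-fold and so not called. *Ddx4* itself was called higher in DKO ovaries than in testes (0.71, limma adjusted p = 0.00482). For *Taf4b* the *Smad4 (Stella)* ovaries differed from control ovaries by -0.61 (SE 0.13, adjusted p = 0.0760), which was not called. Both probes had the same sign, with DKO minus control differences of -1.69 and -1.26 (adjusted p = 9.08e-05 and 0.00115). Within slide 2 the difference was -1.50, and without control ovary 3 it was -1.42. The call in DKO ovaries was lost with the normexp background correction (-0.30, adjusted p = 0.684), under which the median of all genes shifted by 0.26 in this comparison. The call against *Smad4 (Stella)* ovaries was lost without scaling (-1.11, adjusted p = 0.1002) and with the methods' per-gene test after adjustment (adjusted p = 0.0623). With normexp the sign of this difference turned (0.15, adjusted p = 0.840).

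*Figla* and *Taf4b* were the 2 members called in DKO against control ovaries, both lower, where 7.98% of all genes tested were called lower and 6.69% higher. The same 2 genes were called lower in DKO than in *Smad4 (Stella)* ovaries, where 4.06% of all genes were called lower and 4.38% higher. In *Smad4 (Stella)* against control ovaries 0 of 6 members were called by limma, where 0.133% of all genes were called higher and 0.138% lower. At an unadjusted p under 0.05 the methods' t-test gave 2 members there, *Figla* and *Taf4b*, and 0 after adjustment. The median of the 6 members was -0.42 in *Smad4 (Stella)* and -0.59 in DKO against control ovaries, against -0.02 and 0.00 over all genes. The arrays of the compared groups did not overlap for 2 of the 6 members in *Smad4 (Stella)* against control ovaries, as for 28.1% of all genes. The same count, 2 of 6, was found in DKO against control ovaries (32.9% of all genes) and in DKO against *Smad4 (Stella)* ovaries (31.2%), while 5 of 6 did not overlap between the control gonads (58.4%) and 3 of 6 between DKO ovaries and testes (50.5%). These comparisons share the control arrays, and both mutant comparisons with DKO share the DKO arrays.

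**Figure D2:**
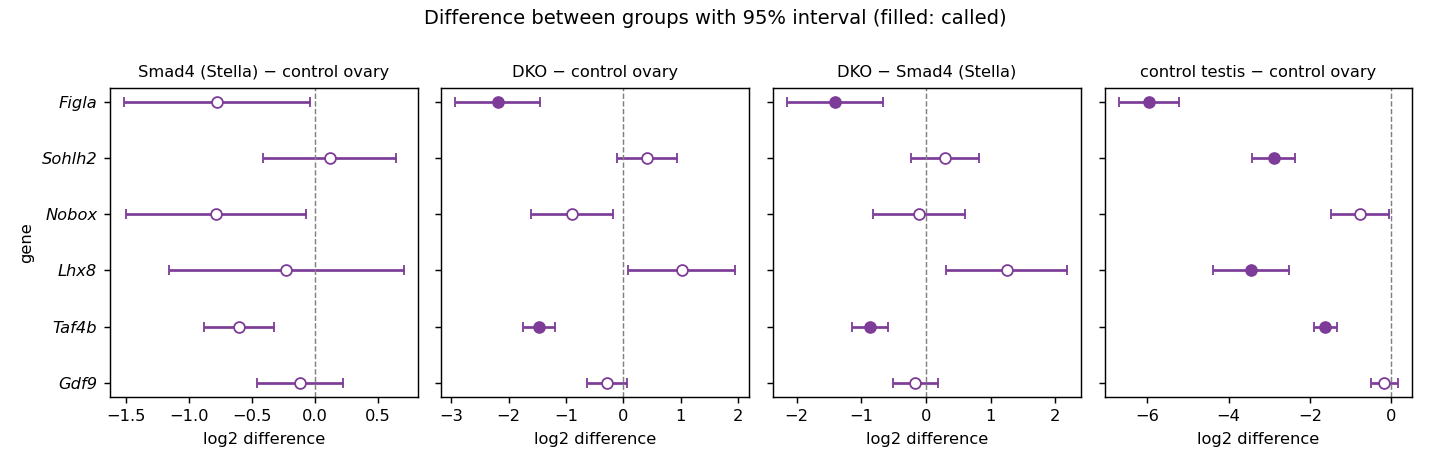
Log2 difference (horizontal axis, with 95% interval) of 6 oocyte regulators in 4 comparisons, 3 arrays in each group; filled points were called and open points were not, and each panel has its own axis. *Figla* (-2.19) and *Taf4b* (-1.47) are the called points in DKO against control ovaries, and *Lhx8* (1.02) lies on the other side of 0.

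*Lhx8*, a LIM homeodomain factor, was not called lower in either mutant. Its levels were -3.52, -3.33 and -3.22 for the control ovaries, -3.12, -3.83 and -3.80 for the *Smad4 (Stella)* ovaries, -2.33, -3.38 and -1.30 for the DKO ovaries and -6.96, -6.52 and -6.91 for the testes. DKO ovaries 1 and 3 lay above every other array, whereas DKO ovary 2 lay within the control ovaries. The difference from control ovaries was -0.23 (SE 0.42, adjusted p = 0.793) in *Smad4 (Stella)* and 1.02 (SE 0.42, adjusted p = 0.113) in DKO ovaries, so that neither was called. Without DKO ovary 2 the DKO difference was 1.54 (adjusted p = 0.00917), without DKO ovary 3 it was 0.50 (adjusted p = 0.319), and within slide 2 it was 0.42. Against *Smad4 (Stella)* ovaries it was 1.25 (adjusted p = 0.0829), and this was called with the slide as a block (2.29, adjusted p = 0.0206) or without DKO ovary 2 (1.77, adjusted p = 0.0104). Over the 3 DKO ovaries the order of the arrays was the same for *Lhx8* and *Figla*, with replicate 3 highest and replicate 2 lowest. By probe A the DKO ovaries were at -1.04, -2.07 and 0.17 and by the dimmer probe B at -3.62, -4.69 and -2.77, and in both replicate 3 was highest. In a limma fit of single probes against *Smad4 (Stella)* ovaries, probe B was called (1.35, adjusted p = 0.0487) and probe A was not (1.15, adjusted p = 0.156). Against control ovaries neither probe was called (A 0.95, adjusted p = 0.187, and B 1.09, adjusted p = 0.0684). The DKO ovaries were above the testes by 4.46 (SE 0.42, adjusted p = 2.27e-05), and by probe B at least 4.40-fold.

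*Sohlh2*, the partner of *Sohlh1* in germ cells of both sexes, was not called in either mutant against control ovaries. Its levels were 1.06, 0.32 and 0.32 for the control ovaries, 1.002, 0.51 and 0.53 for the *Smad4 (Stella)* ovaries, 0.82, 1.02 and 1.07 for the DKO ovaries and -2.32, -2.67 and -1.99 for the testes. The 3 groups of ovaries overlapped and all 9 ovaries lay above the testes. The difference from control ovaries was 0.11 (95% interval -0.41 to 0.64) in *Smad4 (Stella)* and 0.41 (-0.12 to 0.93) in DKO ovaries, with adjusted p of 0.818 and 0.262 by limma. DKO ovaries were 9.84-fold above the testes (3.30 on the log2 scale, SE 0.24, adjusted p = 3.64e-06).

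*Figla*, *Lhx8* and *Sohlh2* were thus the 3 members called higher in DKO ovaries than in testes, where 12.7% of all genes were called higher and 13% lower. With the control ovary mean set to 0% and the control testis mean to 100% on the log2 scale, *Figla* in DKO ovaries took a place at 36.7% ± 13.5 (SD, n = 3) and *Taf4b* at 90.9% ± 9.68. *Sohlh2* lay at -14.0% ± 4.48, on the far side of the control ovaries. No place is given for *Lhx8*, whose probes were mostly not well above background in testes. In *Smad4 (Stella)* ovaries the places were 13.1% ± 4.74 for *Figla*, 37.4% ± 5.13 for *Taf4b* and -3.97% ± 9.64 for *Sohlh2*.

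**Figure D3:**
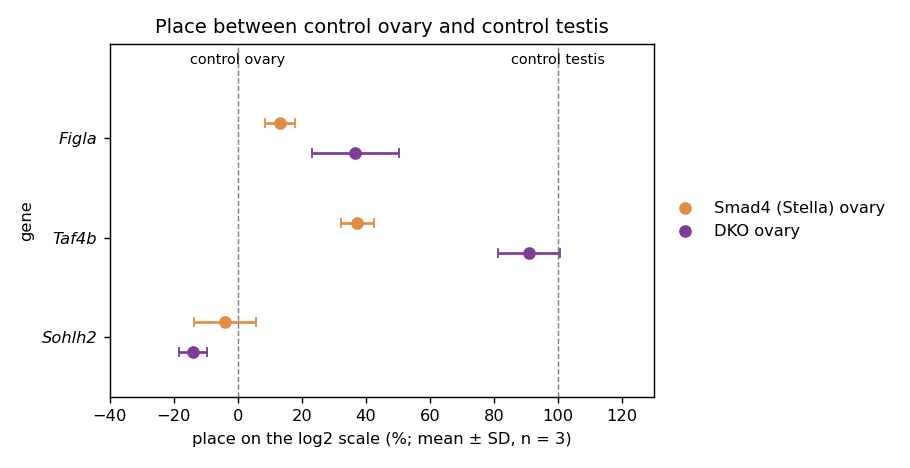
Place of *Smad4 (Stella)* and DKO ovaries (mean ± SD, n = 3) between the control ovary mean (0%) and the control testis mean (100%) on the log2 scale, for the 3 members that differed between the control gonads and were measured in both. *Taf4b* of DKO ovaries lies at 90.9%, *Figla* at 36.7%, and *Sohlh2* beyond the ovarian end at -14.0%.

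*Nobox*, a homeobox regulator of oocyte genes after birth, was dim but well above background on all 12 arrays. Its levels were -3.64, -2.69 and -2.47 for the control ovaries, -3.83, -3.61 and -3.72 for the *Smad4 (Stella)* ovaries, -3.29, -3.96 and -4.22 for the DKO ovaries and -4.05, -3.31 and -3.75 for the testes. Control ovary 1, on the slide of the testes and with 58.8% of spots well above background the lowest of the arrays, lay among the mutants and testes, and control ovaries 2 and 3 lay above all of them. The difference from control ovaries was -0.79 (SE 0.32, adjusted p = 0.219) in *Smad4 (Stella)* and -0.89 (SE 0.32, adjusted p = 0.0739) in DKO ovaries. Without control ovary 1, *Nobox* was called lower in DKO ovaries (-1.24, adjusted p = 0.0114) and in testes (-1.13, adjusted p = 0.00863). It was also called in DKO ovaries without DKO ovary 1 (-1.16, adjusted p = 0.0305) and with the slide as a block (-1.05, adjusted p = 0.0282). Without control ovary 3 the DKO difference was -0.66 (adjusted p = 0.220), and with the normexp correction it was 0.052.

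Of the growth factors, *Gdf9* was not called in any of the 5 comparisons on the scale of the 75th percentile. Its levels were -0.73, -0.88 and -0.81 for the control ovaries, -1.17, -0.81 and -0.81 for the *Smad4 (Stella)* ovaries, -0.78, -1.09 and -1.40 for the DKO ovaries and -0.95, -0.96 and -1.02 for the testes. The probe was well above background on all 12 arrays, and the ovaries of the 3 genotypes overlapped. Its difference from control ovaries was -0.12 (95% interval -0.47 to 0.22) in *Smad4 (Stella)*, -0.28 (-0.63 to 0.06) in DKO ovaries and -0.17 (-0.51 to 0.17) in testes, and none was called. Relative to the mean of the germ cell genes it was called lower in DKO than in control ovaries (-0.66, adjusted p = 0.0129), where the median of all genes shifted by -0.37. That mean includes *Tdrd9*, itself called higher in DKO than in control ovaries, and *Stk31*, called lower. A reference without *Tdrd9* was not tested. Relative to *Ddx4*, *Gdf9* was called lower in DKO ovaries than in testes (-0.82, adjusted p = 0.00311). *Ddx4* itself was called higher in DKO ovaries than in testes (0.71, limma adjusted p = 0.00482). On the scale of the 75th percentile *Gdf9* differed there by -0.11 (limma adjusted p = 0.604). The *Bmp15* probe was well above background on 0 of the 12 arrays, with processed intensities of 2.25 to 12.6, so no difference is given for it.

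**Figure D4:**
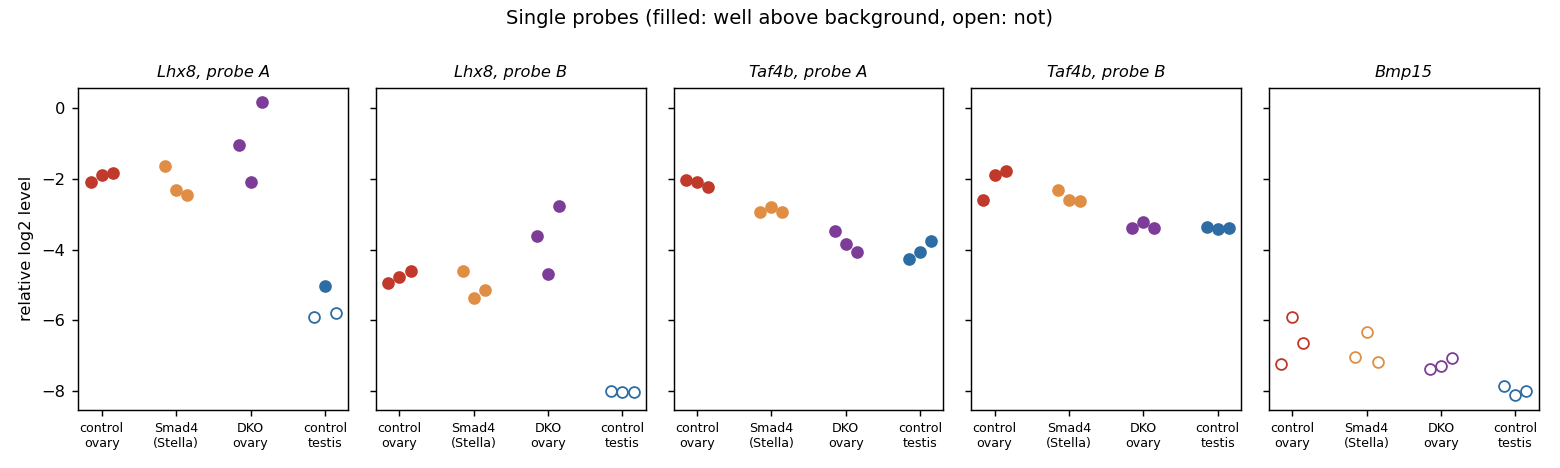
Relative log2 level (vertical axis) of the single probes of *Lhx8*, *Taf4b* and *Bmp15* on the 3 arrays of each group; filled points were well above background and open points were not. Both *Lhx8* probes fall in testes, and all 12 *Bmp15* points are open.

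The genes whose profile over the 12 arrays was most like each tested member are given as a description, by the root mean square difference of the centred log2 levels. *Figla* was nearest to *Taf7l2* (0.54), *Terb2* (0.56) and *Smc1b* (0.56), the latter 2 with known roles in meiotic chromosomes. *Smc1b*, a cohesin subunit of meiosis, was at 6.35 to 6.49 in control ovaries, 5.67 to 6.11 in *Smad4 (Stella)*, 3.89 to 4.80 in DKO ovaries and 1.59 to 1.95 in testes. *Taf4b* was nearest to *Ccp110* (0.14), *Chchd6* (0.17) and *Relch* (0.17), and *Lhx8* to *Ppp2r2c* (0.59), *Insm1* (0.60) and *Tsix* (0.63). *Sohlh2* was nearest to *AI854517* (0.20), *Tnfrsf19* (0.32) and *Mbnl3* (0.33), and *Tnfrsf19* was at 0.21 to 0.86 in the 9 ovaries and -2.96 to -2.81 in testes. For *Nobox* the nearest were ENSMUST00000043448 (0.24), *Hbq1a* (0.25) and *Tsks* (0.26), and for *Gdf9* *Gtf2h5* (0.07), *Ttc4* (0.08) and *Maml1* (0.09). In testes *Taf7l2* was at -7.21 to -6.99, *Insm1* at -8.20 to -7.73 and *Tsix* at -6.98 to -6.45. These lie under the lowest levels well above background on the testis arrays, -5.91 to -5.78, so that their distances rest in part on signal near background.

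Proteins that work with these factors were read next, as a list of 11 genes with the E proteins that pair with bHLH factors, the LIM cofactors of LHX8 and TFIID subunits. In DKO against control ovaries 2 of 11 were called lower and 0 higher, beside 7.98% and 6.69% of all genes, and the median of the list was -0.04 against 0.00 over all genes. The same 2 were called without control ovary 3. Both encode TFIID subunits, and the other 4 of the 6 TFIID genes in the list were not called, with differences of -0.04 to 0.43. *Taf7l*, a germ cell paralogue of *Taf7*, was at 3.55, 3.46 and 3.36 for the control ovaries, 2.95, 3.09 and 3.09 for the *Smad4 (Stella)* ovaries, 1.84, 1.90 and 2.92 for the DKO ovaries and -0.88, -0.81 and -0.48 for the testes, with a DKO difference of -1.24 (SE 0.25, adjusted p = 0.00473). *Taf12*, whose product pairs with TAF4 proteins inside TFIID, was at 2.37, 2.34 and 2.21 in control ovaries, 1.82, 2.12 and 1.94 in *Smad4 (Stella)* and 1.44, 1.03 and 1.48 in DKO ovaries. *Taf12* was lower in DKO than in control ovaries by 0.99 (SE 0.13, adjusted p = 0.000425) and than in *Smad4 (Stella)* ovaries by 0.65 (adjusted p = 0.0104), and the 3 groups did not overlap. Its testes, at 1.32 to 1.35, lay within the range of the DKO ovaries. The E protein gene *Tcf12* was called lower in testes (-1.47, adjusted p = 2.96e-05) and not in the mutant ovaries.

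Receptors and SMADs through which GDF9 and BMP15 signal formed a list of 9 genes, of which 8 were tested. In DKO against control ovaries 1 of 8 was called lower and 0 higher, beside 7.98% and 6.69% of all genes. *Tgfbr1*, the type I receptor used by GDF9, was the 1 gene of the list called in DKO ovaries, with or without control ovary 3, lower by 1.02 than in control ovaries (SE 0.13, adjusted p = 0.000298) and by 0.77 than in *Smad4 (Stella)* ovaries (adjusted p = 0.00382). Its levels were -1.14, -0.91 and -0.85 in control, -1.35, -1.14 and -1.18 in *Smad4 (Stella)* and -1.97, -1.83 and -2.18 in DKO ovaries, and the testes, at -2.03 to -1.79, overlapped the DKO ovaries. *Bmpr1b*, a type I receptor of the BMP branch, was called lower in testes than in control ovaries (-1.54, adjusted p = 7.85e-06) and was at -2.29 to -2.06 in DKO against -2.79 to -2.27 in control ovaries. In *Smad4 (Stella)* ovaries 0 of 8 were called, beside 0.133% of all genes called higher and 0.138% lower. The medians of the list were -0.06 in both mutants.

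Genes that the factors are known to act on, or that mark growing oocytes, formed a list of 25, of which 18 were tested. In control ovaries 9 of the 25 did not rise well above background in any of the 3, among them *Zp1* and *Zp2* of the egg coat. In *Smad4 (Stella)* against control ovaries 0 of 18 were called, beside 0.133% of all genes called higher and 0.138% lower. The median there was 0.39, against -0.02 over all genes. In DKO against control ovaries 8 were called higher and 3 lower, beside 6.69% and 7.98% of all genes, with a median of 0.42 against 0.00 over all genes. Without control ovary 3 the counts were 1 higher in *Smad4 (Stella)* ovaries (*Nlrp14*, 2.69, adjusted p = 0.0393) and 7 higher and 2 lower in DKO ovaries, with *Ooep* and *Ybx2* no longer called. Of all genes, 0.149% were then called higher and 0.0478% lower in *Smad4 (Stella)* ovaries, and 6.44% and 7.48% in DKO ovaries. The largest rises were those of *Nlrp14*, *Uchl1*, *Dppa3* and *Pou5f1*. *Nlrp14*, an oocyte gene also expressed in spermatogenic cells, was at -5.32, -3.96 and -3.45 for the control ovaries, -1.58, -1.76 and -2.52 for the *Smad4 (Stella)* ovaries, -0.25, 0.02 and 0.05 for the DKO ovaries and -0.60, -1.13 and -0.76 for the testes, a DKO difference of 4.18 (SE 0.41, adjusted p = 8.60e-05). It was well above background in 2 of the 3 control ovaries. *Uchl1*, a deubiquitinase of early germ cells, rose by 2.52 (adjusted p = 0.000135), *Dppa3*, which is *Stella* itself, by 2.33 (adjusted p = 0.00333), and *Pou5f1*, a pluripotency factor of early germ cells and oocytes, by 2.32 (adjusted p = 0.00201). *Dppa3* was at 4.11, 2.19 and 2.35 for the control ovaries and 5.43, 5.24 and 4.98 for the DKO ovaries. *Pou5f1* was at -0.24, -1.97 and -1.37 for the control ovaries and 1.31, 1.07 and 1.01 for the DKO ovaries. Control ovary 1 was the highest control ovary for *Dppa3*, *Pou5f1* and *Uchl1* and the lowest for *Nlrp14*. Among the control ovaries it alone carried the Cre and lay on slide 1, and the part of either was not tested.

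These 4 genes were also higher in control testes than in control ovaries, by 3.41, 1.83, 2.34 and 2.61 (adjusted p = 7.43e-05, 0.000293, 0.00129 and 0.000350 by limma). The other genes called higher in DKO ovaries, named after their values were seen, were *Khdc3*, *Ooep*, *Kit* and *Padi6*. Without control ovary 3, testes differed from control ovaries by 4.04 for *Khdc3* and 0.66 for *Ooep*, both called. For *Kit* (0.05) and *Padi6* (-0.17) the testes did not differ by a called amount in that fit. In testes 12 of the 18 were called higher and 2 lower than in control ovaries, beside 17.2% and 16.8% of all genes. The genes called lower in DKO ovaries, named after their values were seen, were *Ybx2* (-0.79, adjusted p = 0.0287) and *Cpeb1* (-0.69, adjusted p = 0.0158), which act on stored mRNA, and *Npm2* (-0.66, adjusted p = 0.0203), a maternal chromatin protein gene. Against *Smad4 (Stella)* ovaries 5 of 18 were called higher in DKO ovaries and 0 lower, beside 4.38% and 4.06% of all genes, and 1 of the 5, *Bcl2l10*, stayed near background in both groups, well above it on 0 of 6 arrays. The calls among the 5 with the largest change were *Nlrp14* (1.90, adjusted p = 0.0151) and *Uchl1* (1.46, adjusted p = 0.00706).

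**Figure D5:**
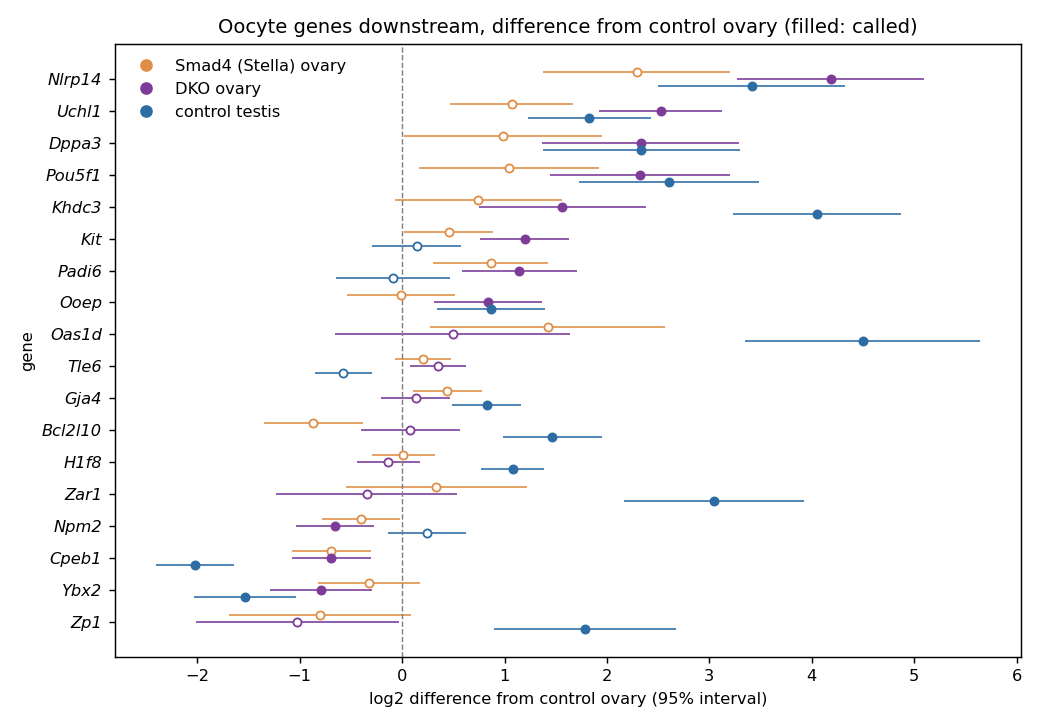
Log2 difference from control ovaries (horizontal axis, with 95% interval) of the 18 tested genes of the oocyte list in *Smad4 (Stella)* ovaries, DKO ovaries and control testes; filled points were called. In DKO ovaries 8 points are called above 0 and 3 below, and *Nlrp14* (4.18) is the largest; *Zp1*, *Bcl2l10* and *Oas1d* rose well above background in 0 of 3 control ovaries.

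Markers of other cells of the gonad were read beside these results. Pregranulosa genes, 7 in all, had mean levels of 0.47 to 0.88 in control, 0.60 to 0.83 in *Smad4 (Stella)* and 0.61 to 1.04 in DKO ovaries, with 0 of 7 called in either mutant. Of all genes, 0.133% were called higher and 0.138% lower in *Smad4 (Stella)* ovaries, and 6.69% and 7.98% in DKO ovaries. In testes the pregranulosa genes were at -2.37 to -2.23 and 7 of 7 were called lower, beside 16.8% of all genes. Sertoli genes, 6 in all, were at -3.16 to -2.78 in control and -3.08 to -2.87 in DKO ovaries against 1.77 to 1.95 in testes, and fetal Leydig genes at -3.15 to -3.04 in DKO ovaries against 3.08 to 3.26 in testes. The 5 genes of germ cells of both sexes had mean levels of 2.87 to 3.05 in control, 2.75 to 2.86 in *Smad4 (Stella)*, 3.16 to 3.51 in DKO ovaries and 2.78 to 3.08 in testes. Among them *Tdrd9* rose in DKO against control ovaries by 2.46 (adjusted p = 6.65e-05) and *Stk31* fell by 0.67 (adjusted p = 0.00453). In testes 1 of these 5 genes was called higher and 2 lower than in control ovaries, beside 17.2% and 16.8% of all genes. Without control ovary 3 the testes differed from control ovaries by 3.11 for *Tdrd9* and -1.64 for *Dazl*, both called. The similar means in testes and control ovaries thus combine genes that differed in opposite directions. The mean levels of 4 macrophage genes were -1.77 to -1.55 in DKO against -3.35 to -2.07 in control ovaries, 4 endothelial genes -0.75 to -0.57 against -0.87 to -0.59, 3 of the 4 erythroid genes tested 1.66 to 2.23 against 2.38 to 2.83 and 4 mesonephric genes -4.32 to -3.90 against -4.24 to -4.07. In DKO against control ovaries 1 macrophage and 1 mesonephric gene were called higher and 1 of 4 erythroid genes lower, beside 6.69% and 7.98% of all genes. Of the Sertoli, fetal Leydig and endothelial genes 0 were called there. Without control ovary 3 the erythroid call was *Hbb-y* (-1.29), the mesonephric call *Lhx1* (1.61), and the macrophage call was lost. The part of these cell types in the results was not tested.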

How the data were processed

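Each of the 12 samples was hybridised to 1 single-colour Agilent array, and groups were taken from the labels. The authors deposited Feature Extraction 11.0.1.1 output, in which the processed intensity is background-corrected per array and unscaled across arrays, as well as an intensity listing with the same values. Probes were placed on mm9.

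These intensities were put on the log2 scale and the array's own 75th percentile, taken over its non-control spots, was subtracted. After removal of outlier spots, repeated spots and then probes of 1 gene were averaged, keeping the 27311 of 41174 probes that exceeded background clearly in all 3 arrays of some group. One linear model with all 12 arrays and no block was fitted with limma 3.58.1 (R 4.3.3, data.table version 1.17.8), p-values were adjusted by Benjamini-Hochberg, and the fit was tested on simulated data. The labels call the samples biological replicates, each 1 pair of gonads, and 3 arrays a group limit the precision. An exact permutation test of 3 arrays against 3 cannot give a p under 0.1, so none is reported. The members and the 12 lists of other genes were chosen with earlier results of these data known. Genes named from a list were the called genes with the largest change, at most 4 in a comparison, and the 3 nearest genes of each member were named by profile. Alternatives were quantile normalization, no scaling, normexp with an offset of 50, the brightest probe, no filter, a 2-fold threshold, a block for the slide, a block for the replicate number, a fit to the compared groups alone, the t-test of the methods, the mean of germ cell genes as the reference, and leaving out each array. *Ddx4* alone as the reference, the gene used in the study's RT-qPCR, and the lists without control ovary 3 were added after seeing the data. Each promoter is from RefSeq (GRCm38.p6), with 6 of 8 members matched.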

Additional observations from a re-analysis of the deposited data

Results flagged for a closer look

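The difference between the effects of the 2 genotypes was itself tested, as DKO minus *Smad4 (Stella)* ovaries. *Figla* was lower in DKO ovaries by a log2 difference of -1.41 (limma, adjusted p = 0.0211), with all 3 DKO ovaries below all 3 *Smad4 (Stella)* ovaries. This call was lost with the slide as a block (-0.58, adjusted p = 0.346), with normexp (adjusted p = 0.168), with the methods' t-test after adjustment (adjusted p = 0.218), in a fit of only the compared groups (adjusted p = 0.0950), and when *Smad4 (Stella)* ovary 2, *Smad4 (Stella)* ovary 3 or DKO ovary 1 was left out. *Taf4b* was lower by a log2 difference of -0.87 (limma, adjusted p = 0.00196), again in 3 of 3 DKO ovaries. This call was lost without scaling (adjusted p = 0.1002) and with the adjusted t-test (adjusted p = 0.0623), and its sign turned with normexp (0.15). The labels give both groups the same *Smad4* alleles and transgene, with Stra8+/- in the one and Stra8-/- in the other.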

How the results depend on the processing

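Counts of members called were within 1.5 times the values given in *Smad4 (Stella)* against control ovaries and in DKO ovaries against testes under every alternative run. In DKO against control ovaries (2 members) the count was 1 with normexp (*Figla*), 1 with the methods' t-test after Benjamini-Hochberg adjustment (*Taf4b*, while *Figla* had an adjusted p of 0.0843) and 4 relative to the germ cell genes (with *Nobox* and *Gdf9*). In DKO against *Smad4 (Stella)* ovaries (2 members) it was 1 without scaling (*Figla*), 0 with normexp, 1 in a model of only the groups compared (*Taf4b*), 0 with the adjusted t-test, 1 at 2-fold (*Figla*) and 1 to 3 when single arrays were left out. In testes against control ovaries (4 members) it was 2 with normexp (*Figla* and *Sohlh2*). The slide as a block kept 2 in DKO against *Smad4 (Stella)* ovaries, but these were *Lhx8* and *Taf4b*. The cause was not tested. The germ cell reference includes *Tdrd9*, itself called higher in DKO than in control ovaries, and a reference without that gene was not tested.

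Replicate numbers did not pair the samples: same-numbered deviations in DKO and control ovaries correlated at 0.09, 0.15 and -0.02. With the replicate block 0, 2, 2, 4 and 3 members were called in the 5 comparisons, *Figla* in DKO ovaries at an adjusted p of 0.00277, and no count changed.

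Signs turned for differences that were not called. In *Smad4 (Stella)* against control ovaries these were *Lhx8* (0.20 without scaling, 0.019 relative to *Ddx4*), *Gdf9* (0.31 without scaling, 0.055 relative to germ cell genes, 0.13 relative to *Ddx4*, 0.38 with the slide block) and *Sohlh2* (-0.046 to 0.36 leaving out arrays). In DKO against control ovaries it was *Nobox* (0.052 with normexp). In DKO against *Smad4 (Stella)* ovaries they were *Nobox* (0.55 with normexp, -0.37 to 0.094 leaving out arrays) and *Sohlh2* (-0.26 relative to germ cell genes, -0.10 relative to *Ddx4*), and *Taf4b*, which was called, turned to 0.15 with normexp. In testes against control ovaries it was *Gdf9* (0.40 relative to *Ddx4*). In DKO ovaries against testes they were *Gdf9* (0.00239 without scaling, 0.012 with normexp, 0.16 with the slide block, -0.27 to 0.043 leaving out arrays), *Nobox* (0.22 with normexp, -0.39 to 0.079 leaving out arrays) and *Taf4b* (-0.22 relative to germ cell genes, -0.094 with the slide block, -0.56 relative to *Ddx4*, adjusted p = 0.0291). In DKO against control ovaries the median of all genes shifted by 0.26 with normexp, 0.19 without scaling, -0.37 relative to germ cell genes and -0.14 relative to *Ddx4*. Signal near background limits *Bmp15* and, in testes, *Lhx8*.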
